A study of Mus musculus with 17 samples.

Results

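The canonical Wnt feedback genes are 10 genes whose transcription is raised by β-catenin in many tissues and whose products act back on the Wnt pathway: Axin2, Nkd1, Lef1, Tcf7, Sp5, Notum, Rnf43, Znrf3, Lgr5 and Dkk1. They were chosen by symbol from the 18836 genes listed in at least 1 library, and all 10 were found. The data are RNA-seq libraries of mouse neural retinal progenitor cells (mNRPCs), cells grown out of the neural retina of adult C57BL/6 mice and propagated in basic medium with bFGF and CHIR99021 before the experiment. There are 17 libraries, a day 0 control and 16 of cultured cells. The culture was basic medium alone (BM), or BM to which bFGF (B), CHIR99021 (C) or both together (BC) had been added, and 1 library was made for each medium on day 1, day 3, day 5 and day 7. bFGF activates FGF receptors, and CHIR99021 is a small molecule inhibitor of the kinase GSK-3. Each medium has a single library per day and no value has a replicate, and whether the day 0 cells had just left the propagation medium or had been in BM is described in different ways in the study. The questions put to each gene were how its level differed with CHIR99021 (C against BM and BC against B) and with bFGF (B against BM and BC against C) on the same day.

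In the canonical Wnt pathway, a destruction complex built on AXIN and APC holds β-catenin while GSK-3 phosphorylates it, which marks it for degradation. A Wnt ligand bound to a Frizzled receptor and LRP5 or LRP6, or an inhibitor of GSK-3, lets β-catenin reach the nucleus, where it works with the TCF/LEF transcription factors. Among the genes it switches on are inhibitors at several levels of the pathway, and their transcripts are widely used as readouts of its activity. In the retina the pathway is known for its part in the ciliary margin and in the choice between neural retina and pigment epithelium.

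Total expected counts, the estimated number of reads assigned to genes, ran from 17571973 to 19428744 per library (median 18274989). Of 7 retinal progenitor markers, Pax6 (10.7 to 207 FPKM), Six3, Sox2, Nes and Hes1 were present in each library, while Lhx2 was at 0.04 to 2.35 FPKM and Rax (at most 0.07 FPKM) was at or near 0. FPKM scales the fragments of a gene by its transcript length and by the size of the library. Photoreceptor, pigment epithelium, endothelial and microglial markers were each below 3 FPKM in sum, and retinal ganglion cell markers were at 1.18 to 4.7 FPKM. Other sets were higher in sum. Müller glia and astrocyte markers were at 13.0 to 32.7 FPKM, with Glul alone at 12.4 to 32.6 FPKM. Bipolar and amacrine markers were at 8.61 to 46.5 FPKM, with Slc6a9 alone at 5.79 to 43.4 FPKM. Mesenchymal markers ran from 4.52 FPKM on day 0 to 162 FPKM. A gene was tested where its mean FPKM over the 16 cultured libraries was at least 1, which left 11272 genes and 4 of the 10 members: Axin2 (mean 8.79 FPKM), Tcf7 (10.8), Notum (3.64) and Znrf3 (2.89). The other 6 had means between 0.003 and 0.12 FPKM. Fold changes are from edgeR's quasi-likelihood test with the 8 same-day pairs of a factor as blocks, with p-values adjusted over all genes tested and a threshold of 0.05. Without replicates, the spread in that test is the departure of single pairs from the common fold change and not the spread between cultures.

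The upstream bases of 3 members are shown because Axin2 had the smallest p of the members with CHIR99021, Dkk1 had its highest level with CHIR99021 alone, and Sp5, a target gene in many cell types, was almost silent. Each line holds the 250 bases before the RefSeq start site, 5′ to 3′ on the gene's own strand (GRCm38.p6, the same assembly as mm10). Capitals mark matches to the TCF/LEF core letters CTTTGAT or CTTTGTT on either strand, which do not overlap each other.
Axin2: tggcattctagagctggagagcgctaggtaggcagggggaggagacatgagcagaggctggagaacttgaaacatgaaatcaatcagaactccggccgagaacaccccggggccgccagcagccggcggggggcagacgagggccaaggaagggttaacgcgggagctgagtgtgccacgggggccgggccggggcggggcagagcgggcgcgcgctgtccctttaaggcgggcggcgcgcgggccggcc
Dkk1: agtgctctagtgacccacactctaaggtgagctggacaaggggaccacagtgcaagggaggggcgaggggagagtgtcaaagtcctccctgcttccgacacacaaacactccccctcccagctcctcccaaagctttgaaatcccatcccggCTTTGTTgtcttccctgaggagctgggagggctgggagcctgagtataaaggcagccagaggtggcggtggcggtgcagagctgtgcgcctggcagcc
Sp5: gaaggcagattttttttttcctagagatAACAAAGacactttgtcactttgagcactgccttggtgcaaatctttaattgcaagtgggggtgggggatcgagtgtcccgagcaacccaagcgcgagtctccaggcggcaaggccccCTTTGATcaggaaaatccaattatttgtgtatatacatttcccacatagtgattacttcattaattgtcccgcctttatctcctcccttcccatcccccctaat
The Axin2 window lies at chr11:108920099-108920348 on the plus strand, inside the annotated extent of the gene (chr11:108917828-108950783). That of Dkk1 is chr19:30549497-30549746 on the minus strand, and that of Sp5 chr2:70474673-70474922 on the plus strand. Windows were found for 7 of the 10 members (12 windows in all), and 2 windows held a match, those of Sp5, with 1 of each motif, and Dkk1, with CTTTGTT. Of 32851 windows of the same length over all genes, 3.21% held CTTTGAT, 5.03% held CTTTGTT and 8.06% held either. A match to these letters is a description of the window and not a measured binding site.

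With CHIR99021, 3 of the 4 members tested rose over the 8 pairs, Axin2, Notum and Tcf7, and none fell. In all, 9.72% of the 11272 genes tested were called higher and 9.79% lower, 19.5% together. In C against BM the same members were called, where 7.3% of all genes were called and 2.89% were higher. In BC against B Axin2 was called, where 16.9% of all genes were called and 8.84% were higher. With bFGF, Axin2 fell and Tcf7 rose over the 8 pairs, against 29.5% of all genes lower and 30.5% higher (60.1% together), so a call with bFGF does not set a member apart from other genes. The CHIR99021 and bFGF comparisons use the same 16 libraries and are not independent of each other.

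**Figure D1:**
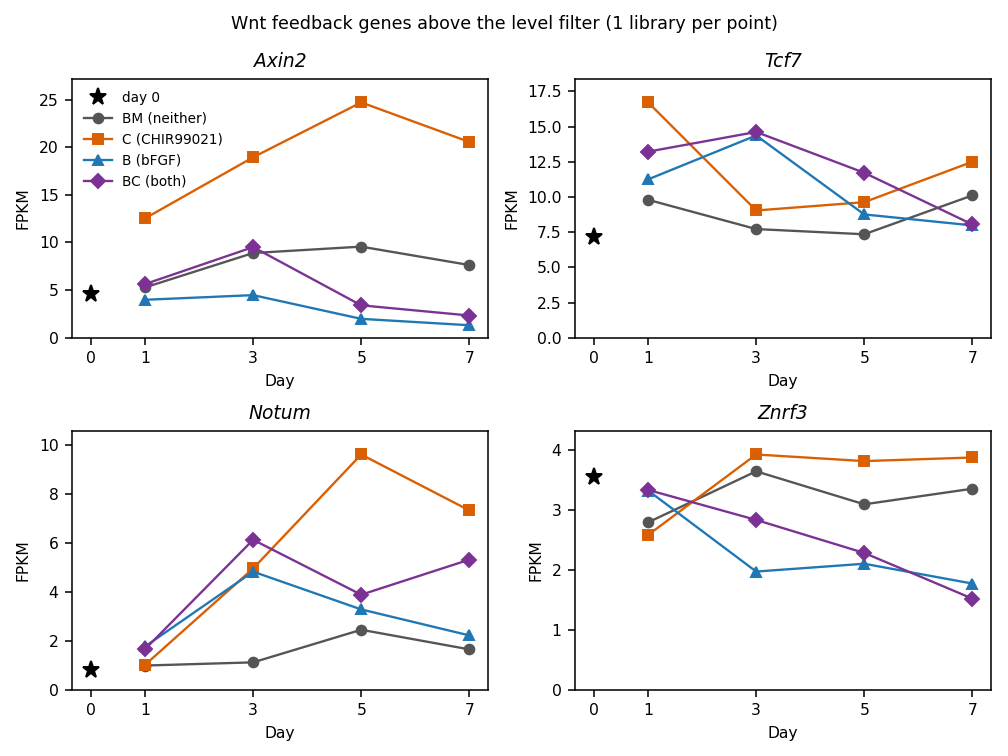
FPKM (y axis) of the 4 members with a mean of at least 1 FPKM by day (x axis), 1 library per point, with the day 0 control as a star and lines joining the days of a treatment. Axin2 in C lay above the other treatments on each day, from 12.5 to 24.7 FPKM, and in B it was lowest on each day.

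Axin2 encodes a scaffold of the destruction complex and is the most widely used readout of β-catenin activity. It stood at 4.61 FPKM on day 0. In BM it was 5.28, 8.89, 9.56 and 7.63 FPKM on days 1, 3, 5 and 7, and in C it was 12.5, 18.9, 24.7 and 20.6 FPKM. The C library was above the BM library of its day by 2.13 to 2.69 times, and the ranges of C and BM over the 4 days did not overlap. With bFGF the levels were lower. The step with CHIR99021 was smaller with bFGF on days 1, 5 and 7 and level on day 3 (2.13 times in both arms), a difference that did not pass over all genes. In B Axin2 was 3.98, 4.47, 1.98 and 1.31 FPKM, and in BC 5.63, 9.51, 3.4 and 2.33 FPKM, which is 1.42 to 2.13 times B on the same day.

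Over the 8 pairs Axin2 was higher with CHIR99021 in 8 of 8, by a log2 fold change of 1.09 (SE 0.10, adjusted p = 0.000135). It ranked 8 of 11272 genes by p and 27 by the size of the rise. Without bFGF the log2 fold change was 1.31 (SE 0.09, adjusted p = 1.17e-05, rank 2 by p), and with bFGF it was 0.80 (SE 0.10, adjusted p = 0.00132). The difference between them, -0.51 (SE 0.13), did not pass over all genes (unadjusted p = 0.00177, adjusted p = 0.103, and 0.0397 to 0.624 over 11 alternatives, of which DESeq2 and the fit without the filter passed), and 0.692% of all genes were called there. By day the log2 fold change was 0.91, 1.1, 1.14 and 1.22 on days 1, 3, 5 and 7, each from 2 pairs. With edgeR and the filter, the value of day 3 alone passed the threshold (adjusted p = 0.0409, with 1.47% of genes called that day, against 0.0444% on day 1, 0.0444% on day 5 and 0.00887% on day 7). DESeq2 called Axin2 on each of the 4 days (adjusted p = 0.0118, 0.000212, 0.000936 and 0.000571), edgeR without the filter called days 3, 5 and 7 (adjusted p = 0.0128, 0.0286 and 0.038), and limma called none (adjusted p = 0.0807 on day 3). The change from day 1 to day 7 did not pass (0.32, SE 0.30, adjusted p = 0.994). In an exact two-sided sign-flip test on log2(FPKM + 1) the mean difference was 0.90 ± 0.35 (SD over 8 pairs, exact p = 0.0078, the smallest that 8 pairs can give, adjusted p = 0.0573), and 0 of 11272 genes passed the adjusted threshold there (3577 had an unadjusted p under 0.05, and edgeR called 2199). In a fit with bFGF, CHIR99021 and day as additive terms in place of the pairs, which leaves the change of the bFGF effect over days in the spread, Axin2 did not pass (1.07, adjusted p = 0.0685).

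Axin2 was lower with bFGF in 8 of 8 pairs, by a log2 fold change of -1.5 (SE 0.26, adjusted p = 0.00274; exact sign-flip p = 0.0078, adjusted p = 0.0213, where 52.5% of genes passed). B was 0.172 to 0.754 times BM, and BC 0.113 to 0.502 times C. The log2 fold change grew from -0.71 on day 1 (SE 0.21, adjusted p = 0.0717) to -0.91 on day 3, -2.16 on day 5 and -2.31 on day 7 (SE 0.23, adjusted p = 1.49e-05). Day 7 differed from day 1 by -1.60 (SE 0.31, adjusted p = 0.00166), a test that 63.2% of all genes passed. From day 1 to day 7 Axin2 rose without bFGF (0.60, SE 0.12, adjusted p = 0.000764) and fell with bFGF (-0.98, SE 0.14, adjusted p = 4.14e-05), against 65.5% and 76.7% of all genes called in these comparisons. In bulk RNA, fewer cells of a type and less RNA per cell cannot be told apart. Other markers moved with bFGF too. The summed level of 4 mesenchymal markers, all 4 listed, was 15.9 to 162 FPKM without bFGF and 7.74 to 38.7 FPKM with it, and that of the 7 progenitor markers, all 7 listed, was 149 to 404 FPKM without and 96.1 to 207 FPKM with it. Single genes weigh heavily in these sums. Over the 17 libraries Pax6 alone ran from 10.7 to 207 FPKM and Pdgfrb, a mesenchymal marker, from 3.78 to 115 FPKM, while Rax and Lhx2 reached at most 0.07 and 2.35 FPKM. The part of these markers in the result was not tested.

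Nkd1, an intracellular inhibitor that binds Dishevelled, was near the limit of detection. It was not listed on day 0 and had at most 5 expected counts in any library, and the sum over 4 days was 8.96 counts in BM, 6.99 with CHIR99021 alone, 5.89 with bFGF alone and 10.99 with both. The exact Poisson 95% intervals of the 4 treatments overlapped (0.056 to 0.233 CPM in BM and 0.0757 to 0.271 CPM in BC, where CPM is the expected count of a gene scaled by the total of its libraries), so no difference was detectable at this depth. These intervals cover counting error only.

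**Figure D2:**
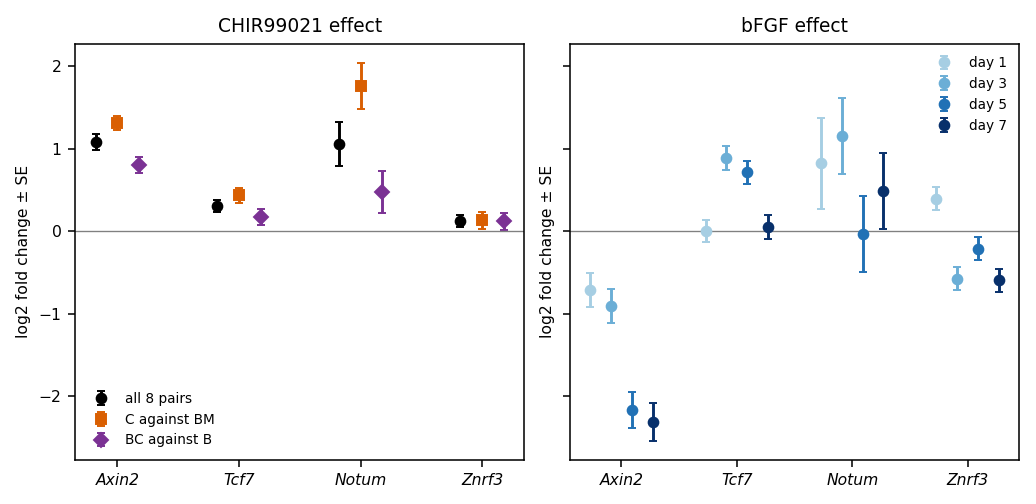
Log2 fold change with its standard error (y axis) of the 4 members tested, for CHIR99021 (left; all 8 pairs, C against BM, BC against B) and for bFGF by day (right; 2 pairs per day). Axin2 was above 0 in the 3 CHIR99021 comparisons and below 0 with bFGF on each day, reaching -2.31 on day 7.

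Notum encodes a secreted enzyme that removes the lipid from Wnt ligands and so inactivates them. It was 0.80 FPKM on day 0 and 0.99, 1.12, 2.45 and 1.65 FPKM in BM. In C it was 1.02 FPKM on day 1, level with BM, and then 4.95, 9.60 and 7.32 FPKM on days 3, 5 and 7. In B it was 1.77, 4.82, 3.28 and 2.22 FPKM, and in BC 1.66, 6.12, 3.88 and 5.31 FPKM. From day 3 the C libraries were thus 3.92 to 4.44 times BM, and the 3 C libraries of these days lay above the whole range of BM.

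Notum was higher with CHIR99021 in 7 of 8 pairs, with a log2 fold change of 1.06 (SE 0.27, adjusted p = 0.0172). The rise was called without bFGF (1.76, SE 0.28, adjusted p = 0.00318), and the value with bFGF was 0.48 (SE 0.26, adjusted p = 0.217), which was called without day 1 (0.61, adjusted p = 0.0338) and was 0.19 without day 7 (adjusted p = 0.69). The difference between the arms was -1.29 (SE 0.38, unadjusted p = 0.0052, adjusted p = 0.156, and 0.0147 to 0.75 over 10 alternatives, of which 2 passed). The call over 8 pairs was lost without day 5 (adjusted p = 0.0552), without day 7 (adjusted p = 0.118) and with additive terms (adjusted p = 0.202), and the call in C against BM was lost without day 5 (adjusted p = 0.0628). In FPKM, Notum was higher in B than in BM on each of the 4 days, by 1.34 to 4.30 times, while BC was above C on 2 of 4 days. On TMM-normalized CPM it was higher with bFGF in 7 of 8 pairs (exact sign-flip p = 0.0625, adjusted p = 0.0932), against 6 of 8 in FPKM. The log2 fold change with bFGF over 8 pairs was 0.66 (SE 0.28, adjusted p = 0.0622, and 0.0331 by DESeq2). Notum rose from day 1 to day 7 without bFGF (1.91, SE 0.43, adjusted p = 0.00178) and with it (1.56, SE 0.39, adjusted p = 0.00261), the latter a call that limma with a pseudocount of 1 did not make (0.73, adjusted p = 0.0613).

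Dkk1 encodes a secreted protein that blocks LRP5 and LRP6. Its expected counts were low and partly split between genes. It had 1.88 counts on day 0, then 1.23, 4.10, 7.85 and 5.57 in BM, and 0.93, 11.12, 23.13 and 11.94 in C. In B it had 1.05, 0, 1.15 and 3.38, and in BC 3.47, 0, 0.50 and 3.8. From day 3 on, C held the highest count of each day. Over 4 days the level was 0.641 CPM in C (exact Poisson 95% interval 0.470 to 0.851) against 0.255 in BM (0.156 to 0.404), intervals that did not overlap but that leave out any variation between cultures. When all 18757 genes with a value were tested without the filter, the CHIR99021 log2 fold change over 8 pairs was 1.05 (SE 0.45, adjusted p = 0.158), where 11.4% of genes were called, and that of bFGF was -1.86 (SE 0.77, adjusted p = 0.0767), where 38.8% were called. By day the bFGF test of Dkk1 passed on day 3 (adjusted p = 0.0242, with 29.4% of genes called) and on day 5 (adjusted p = 0.0123, with 49.3%), days on which its libraries with bFGF held 0 to 1.15 counts.

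ZNRF3 and RNF43 are transmembrane E3 ubiquitin ligases that remove Frizzled from the cell surface, and LGR5 is an R-spondin receptor that holds them in check. Znrf3 stood at 3.55 FPKM on day 0. It was 2.79, 3.64, 3.09 and 3.35 FPKM in BM and 2.58, 3.92, 3.81 and 3.87 FPKM in C. In B it was 3.32, 1.97, 2.10 and 1.77 FPKM, and in BC 3.33, 2.83, 2.28 and 1.52 FPKM. From day 3 on, each library with bFGF was below each library without it, whereas on day 1 the order was the opposite.

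Znrf3 did not pass for CHIR99021. It was higher in 6 of 8 pairs, with a log2 fold change of 0.13 (SE 0.07, adjusted p = 0.23), 0.13 without bFGF and 0.12 with it. Over 8 pairs it did not pass for bFGF either (-0.25, SE 0.16, adjusted p = 0.192), a value that passed without day 1 (-0.47, adjusted p = 0.0112), by library size alone (-0.54, adjusted p = 0.0384) and by limma with a pseudocount of 1 (-0.39, adjusted p = 0.0472). By day the bFGF log2 fold change was 0.39 on day 1 (SE 0.14, adjusted p = 0.119), -0.57 on day 3 (SE 0.14, adjusted p = 0.00866), -0.21 on day 5 (adjusted p = 0.198, but -0.66 and adjusted p = 0.00288 by library size alone and -0.48 and adjusted p = 0.00772 by limma) and -0.59 on day 7 (SE 0.14, adjusted p = 0.00408). Day 7 differed from day 1 by -0.99 (SE 0.20, adjusted p = 0.00216). From day 1 to day 7 Znrf3 rose by 0.40 without bFGF (SE 0.14, adjusted p = 0.0252, and 0.0978 without the filter) and fell by 0.58 with it (SE 0.15, adjusted p = 0.00331) on the log2 scale.

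Taking the days one by one, bFGF called 0 of the 4 members on day 1 (2 at an unadjusted p under 0.05, and 1, Axin2, both by DESeq2 and without the filter), where 7.18% of all genes were called. It called Axin2, Tcf7 and Znrf3 on day 3 (47.3% of all genes), Axin2 and Tcf7 on day 5 (74.2%) and Axin2 and Znrf3 on day 7 (76.9%).

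Lgr5 was highest in the day 0 library. It had 51.83 expected counts and 0.56 FPKM on day 0, or 2.67 CPM (exact Poisson 95% interval 2.0 to 3.51). On day 1 the 4 libraries held 3.15 (BM), 6.12 (C), 8.24 (B) and 7.10 (BC) counts. From day 3 the treatments parted by bFGF, with 16.84 to 21.52 counts in BM and 16.66 to 18.84 in C against 0 to 1.42 in B and 2.21 to 2.89 in BC. The groups with and without bFGF did not overlap on these days. Over the 8 libraries of each kind the level was 0.816 CPM without bFGF (0.677 to 0.977) and 0.167 with it (0.106 to 0.246). Without the filter on low values the log2 fold change with bFGF was -2.12 (SE 0.72, adjusted p = 0.0366). By day it passed on day 3 (adjusted p = 0.00981), day 5 (adjusted p = 0.00794) and day 7 (adjusted p = 0.0222, with 50.9% of genes called). With CHIR99021 it was 0.20 (SE 0.35, adjusted p = 0.811). Rnf43 was listed in 5 of 17 libraries, with 1 or 2 expected counts, 4 of them with bFGF, too few to compare.

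**Figure D3:**
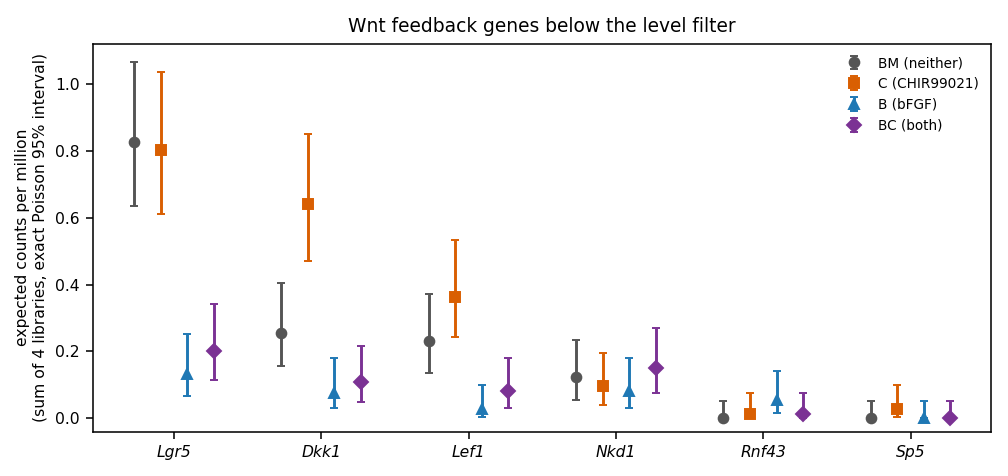
CPM from expected counts (y axis) of the 6 members below the filter, summed over the 4 days of a treatment, with exact Poisson 95% intervals that cover counting error only. Lgr5 lay at 0.828 (BM) and 0.804 (C) without bFGF and at 0.132 (B) and 0.201 (BC) with it, and Dkk1 was highest in C at 0.641.

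Tcf7 and Lef1 encode 2 of the DNA-binding partners of β-catenin, and both are known target genes as well. Tcf7 was 7.15 FPKM on day 0. It was 9.80, 7.72, 7.35 and 10.1 FPKM in BM and 16.7, 9.04, 9.63 and 12.5 FPKM in C. In B it was 11.2, 14.4, 8.76 and 7.98 FPKM, and in BC 13.2, 14.6, 11.7 and 8.05 FPKM. The library with CHIR99021 was the higher one in 8 of 8 pairs, by 1.01 to 1.71 times, with the largest step on day 1 without bFGF (7 of 8 pairs on TMM-normalized CPM, exact sign-flip p = 0.0156, adjusted p = 0.0757), and the ranges of the treatments overlapped.

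The CHIR99021 log2 fold change of Tcf7 was 0.31 over the 8 pairs (SE 0.07, adjusted p = 0.0151), 0.44 without bFGF (SE 0.09, adjusted p = 0.0152) and 0.18 with it (SE 0.09, adjusted p = 0.205), and the difference between the arms was -0.26 (SE 0.13, adjusted p = 0.406). The call over 8 pairs was lost without day 1 (adjusted p = 0.0571), without day 5 (adjusted p = 0.0825) and with additive terms (adjusted p = 0.46), and the call in C against BM without day 1, day 5 or day 7 (adjusted p = 0.0729, 0.0808 and 0.0762). With bFGF it was 0.42 (SE 0.15, adjusted p = 0.0367, called in 4 of 12 alternatives), from 0.005 on day 1 to 0.89 on day 3, 0.71 on day 5 and 0.05 on day 7, and the days differed (adjusted p = 0.00631, a test that 71.8% of genes passed). These bFGF values are relative to the median gene. Scaled by library size alone, the median log2 fold change of all genes with bFGF was -0.29 over the 8 pairs and -0.54 on day 7, and that of Tcf7 was 0.13 over the 8 pairs (adjusted p = 0.537), 0.27 on day 5 (adjusted p = 0.116) and -0.48 on day 7 (adjusted p = 0.0124).

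Lef1 was not listed on day 0. It had 2, 6, 2.97 and 6 expected counts in BM, 2, 6.72, 8 and 10 in C, 0.99, 1, 0 and 0 in B and 2, 2, 0 and 2 in BC. The 8 libraries without bFGF held 43.69 counts, or 0.297 CPM (exact Poisson 95% interval 0.218 to 0.402), and the 8 with bFGF 7.99 counts, or 0.0549 CPM (0.0237 to 0.108). Without the filter the bFGF log2 fold change was -2.05 (SE 0.61, adjusted p = 0.0213), and that of CHIR99021 was 0.80 (SE 0.50, adjusted p = 0.398). Without the filter, bFGF called 3 of the 10 members over the 8 pairs, Axin2, Lef1 and Lgr5, each lower, against 19.9% of 18757 genes. Sp5, a zinc finger repressor, had 2 expected counts in C on day 7 and was not listed in the other 16 libraries. Taking 3 counts over the 4 libraries of a treatment as the limit that a count of 0 allows, its level in BM was at most 0.0409 CPM (the exact Poisson 95% interval ends at 0.0502 CPM).

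The other genes of the pathway were taken from a list of 120 in 5 roles, of which 72 were tested. With CHIR99021 4 rose and 9 fell over the 8 pairs, where 9.72% of all genes were higher and 9.79% lower, and the median log2 fold change of the 72 was -0.01 (0.01 over all genes). By arm, 3 were higher and 6 lower in C against BM, and 10 higher and 5 lower in BC against B. The balance of all 11272 genes leaned the same way in each arm. Of these, 326 were higher and 497 lower in C against BM, and 996 higher and 910 lower in BC against B. For the list, the difference between the arms was not tested. Among receptors, Fzd6 rose in 8 of 8 pairs (0.61, SE 0.08, adjusted p = 0.000658), with medians over the days of 44.3 FPKM in BM and 63.0 in C. Fzd5 (-0.24) and Fzd7 (-0.38), which encode Frizzled receptors too, fell. Of the 8 other antagonists and modulators tested, 1 rose, Apcdd1 (0.55, SE 0.15, adjusted p = 0.0226), and 2 fell. Among the latter, the Dickkopf relative Dkk3 fell in 8 of 8 pairs (-0.58, SE 0.10, adjusted p = 0.00262), from a median of 157 FPKM in BM to 110 in C. Of the 7 Wnt ligands and genes for their lipid attachment and secretion that were tested, 0 were called over the 8 pairs by edgeR, the only tool reported here for this list (2 at an unadjusted p under 0.05, Wls and Wnt5a). In BC against B both of these were called higher, Wls, which carries Wnt ligands to the cell surface, by 0.46 (adjusted p = 0.00626) and the ligand Wnt5a by 0.54 (adjusted p = 0.0275). In C against BM neither was called (Wls 0.04, Wnt5a 0.05). With bFGF over 8 pairs both fell, Wls by -0.72 (adjusted p = 0.00274) and Wnt5a by -1.99 (adjusted p = 0.00608).

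Of the 19 other reported targets tested, 1 rose with CHIR99021, Twist1 (0.26, adjusted p = 0.00808), and 5 fell, against the same 9.72% and 9.79% of all genes. The genes that fell include Myc, a growth-promoting transcription factor (-0.74, SE 0.12, adjusted p = 0.00186, lower in 8 of 8 pairs), Ccnd1, which encodes cyclin D1 (-0.45, SE 0.08, adjusted p = 0.00281, lower in 8 of 8 pairs), and Cd44, a hyaluronan receptor (-0.29, adjusted p = 0.0164).

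With bFGF 22 of the 72 rose and 33 fell, where 30.5% of all genes were higher and 29.5% lower. All 7 ligands and genes of ligand processing fell, with a median log2 fold change of -1.99 (-0.004 over all genes). They include Wnt9a (-2.24, SE 0.19, adjusted p = 0.000179) and Porcn, the enzyme that attaches the lipid to Wnt ligands (-3.29, SE 0.56, adjusted p = 0.00258). Porcn reached 242 FPKM in BM and 12.7 FPKM in B at its highest. Of 12 receptors, 3 rose and 8 fell, among them Fzd6 (-2.40) and Ryk (-0.60), a co-receptor. Of 26 genes of the destruction complex and effectors, 6 rose and 12 fell, among them Tcf7l2 (-0.94) and Dvl3 (-0.69). Of 8 other antagonists and modulators, 5 fell, among them Sfrp1 (-3.23) and Apcdd1 (-1.54). The other reported targets moved mostly the other way, with 13 of 19 higher and 1 lower, among them Cd44 (1.29, SE 0.12, adjusted p = 0.000236) and Cdx2, a homeobox factor (0.94, SE 0.10, adjusted p = 0.000642).

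**Figure D4:**
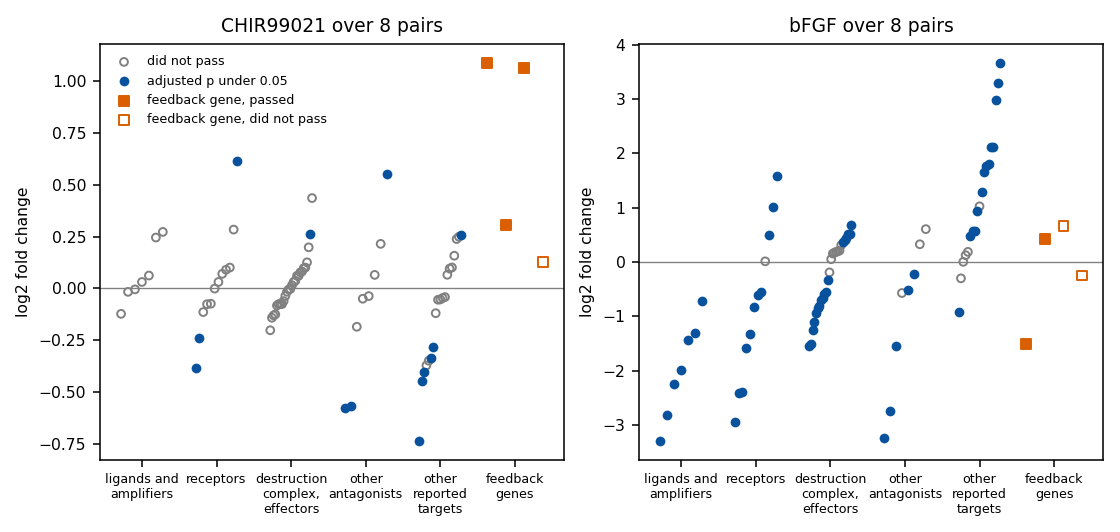
Log2 fold change (y axis) over 8 pairs of CHIR99021 (left) and of bFGF (right) for the 72 other pathway genes tested, by role, and the 4 feedback genes, with filled symbols for an adjusted p under 0.05. With CHIR99021 Axin2 (1.09) and Notum (1.06) lay above the 72 other genes, and with bFGF all 7 ligands and processing genes lay below 0.

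Over the 17 libraries, the genes whose log2(FPKM + 1) followed Axin2 most closely among 11254 compared were Sirt7 (Pearson's r = 0.951), Alg2 (0.951), Reep6 (0.950), Pepd (0.950) and Slc26a6 (0.949). On day 7 Reep6, for example, was 42.9 FPKM (BM) and 61.2 FPKM (C) without bFGF and 7.91 FPKM (B) and 9.95 FPKM (BC) with it. Of the other members, Znrf3 had an r of 0.764, Notum 0.328 and Tcf7 0.247. These values describe the 17 libraries, which share the bFGF and time courses, and carry no test. By mean FPKM over the 4 days the treatments stood in the order C, BM, BC, B for Axin2 (19.2, 7.84, 5.22 and 2.94 FPKM) and for Znrf3 (3.54, 3.22, 2.49 and 2.29), and in the order C, BC, B, BM for Notum (5.72, 4.24, 3.02 and 1.55) and for Tcf7 (12, 11.9, 10.6 and 8.74). With TMM-normalized counts the order was kept for Axin2, Notum and Znrf3, while for Tcf7 BC and B came above C.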

How the data were processed

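The authors sequenced poly-A RNA on the BGISEQ-500 platform and mapped the reads with Bowtie2. The submitters' processing notes name RSEM and the mm10 build, and the paper names eXpress. Versions and annotation are not given in the sources used here. The files the authors deposited give each gene an expected count, an estimate that need not be whole (63.9% to 66.6% were), and an FPKM value, listed from 0.01. Absence from a file was taken as 0. Rounded expected counts entered edgeR 4.0.16 (R 4.3.3, TMM, glmQLFit, glmQLFTest, Benjamini-Hochberg adjustment over all genes tested, threshold 0.05) for genes whose FPKM averaged 1 or more over the 16 cultured libraries. The terms were the same-day pair (8 pairs) and the factor, fitted over all pairs, by arm and by day, and, for time, treatment and day within each bFGF arm. What edgeR terms the biological coefficient of variation was 10% for CHIR99021 and 28.8% for bFGF over 8 pairs, and 10.5% by day. Without replicates it measures the departure of single pairs from the fitted fold change and not the spread between cultures. An exact two-sided sign-flip test was run over the 8 pairs with a pseudocount of 1. Day 0 entered no test.

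Alternatives were no filter, a minimum mean FPKM of 5, DESeq2 1.42.0 with its own size factors, RLE factors, library size alone, limma 3.58.1 on log2(FPKM + 1) and log2(FPKM + 0.1), leaving out each day, additive terms, each arm alone and, for pairs and levels, TMM-normalized CPM. For CHIR99021, pairs were used because additive terms leave the change of the bFGF effect over days in the spread (24.7%). The bFGF fit over 8 pairs, with 1 bFGF term for all days, leaves that change in its spread too (28.8%). Only the bFGF fit by day takes it out. Positions and promoter windows are RefSeq's (GRCm38.p6). The fits over 8 pairs were tested on simulated data with a coefficient of variation of 10% and a fold change constant over days. The bFGF fit had 28.8%, so for bFGF that simulation does not match the data, and fits by arm and by day were not simulated. The members, the pathway list and the markers were chosen with earlier results of these data known. One marker of the list is not reported here. The genes named were the members, at most 8 pathway genes by smallest p for CHIR99021, 2 of each role for bFGF, and the 5 genes most like Axin2. Wls and Wnt5a were named outside this rule. They are the ligand and processing genes with an unadjusted p under 0.05 for CHIR99021 over 8 pairs, where neither passed after adjustment. Python 3.11.15, numpy 2.4.6, pandas 2.3.3, scipy 1.17.1 and matplotlib 3.10.9 were used.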

Additional observations from a re-analysis of the deposited data

Results flagged for a closer look

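The bFGF effect differed between days in 3 of the 4 members tested, by edgeR's test of any difference between days. That test was passed by 71.8% of the 11272 genes, and day 7 minus day 1 by 63.2%. The count of members therefore does not set them apart from other genes. For Axin2 the log2 fold change with bFGF was lower on day 7 than on day 1 by 1.60 (-1.60, SE 0.31, adjusted p = 0.00166), and the test of any difference between the 4 days gave an adjusted p of 0.00214. Axin2 was lower with bFGF in both pairs of each day, so the days differ in size and not in sign.

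For Znrf3 the same difference was -0.99 (SE 0.20, adjusted p = 0.00216), with an adjusted p of 0.00523 for any difference between days, and here both pairs were higher with bFGF on day 1 and both were lower on days 3, 5 and 7. For Tcf7, day 7 minus day 1 was 0.05, and the test of any difference between days gave an adjusted p of 0.00631, from the higher values of days 3 and 5. In all, 71.8% of genes passed the test of any difference between days.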

How the results depend on the processing

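Over all alternatives, the 4 members gave 457 values, of which 396 kept their direction and their side of the threshold, 24 no longer passed, 24 came to pass and 13 changed sign. Axin2 kept its call in 12 of 12 alternatives for C against BM, BC against B and bFGF over 8 pairs, and in 11 of 12 for CHIR99021 over 8 pairs. The causes of the changes below were not tested.

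CHIR99021 over 8 pairs called 2199 genes and 3 members. Leaving out a day gave 1116 to 1548 genes and 1 to 3 members (Axin2 alone without day 5), and additive terms 38 genes and 0 members. C against BM called 823 genes and 3 members, against 154 to 868 genes and 1 to 3 members without a day and 2292 genes with the arm alone. BC against B called 1906 genes and 1 member, against 446 to 2655 genes and 1 to 2 members without a day and 549 genes with the arm alone. The difference between the arms was called in 78 genes and 0 members, with 224 genes and 2 members without the filter, 45 genes at a minimum FPKM of 5, 242 genes and 1 member by DESeq2, 1 gene by limma with a pseudocount of 1, 0 with 0.1, and 1 to 593 genes and 0 to 1 members without a day.

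bFGF over 8 pairs called 6772 genes (3443 higher, 3329 lower) and 2 members, with 2588 to 7515 genes and 1 to 3 members without a day, 1 member at a minimum FPKM of 5 and 1 by limma with a pseudocount of 0.1. By library size alone 1983 genes were higher and 5052 lower. By day it called 0, 3, 2 and 2 of the 4 members, where 809, 5330, 8362 and 8668 of 11272 genes were called. Without the filter it called 1, 6, 4 and 3 of the 10 members, where 866, 5506, 9242 and 9539 of 18757 genes were called. DESeq2 called 1 member on day 1, where it called 774 of 11272 genes.

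The sign of Tcf7 with bFGF changed on day 1 (-0.027 by DESeq2, -0.076 by library size, -0.068 by limma, -0.014 without the filter), on day 7 (-0.48 by library size, -0.44 by limma) and for day 7 minus day 1 (-0.41 and -0.37). That of Notum changed on day 5 (0.046 by DESeq2) and day 7 (-0.052 by library size, -0.059 by limma), and that of Znrf3 in the difference between arms (-0.144 to 0.089 when a day was left out). With 1 library per treatment and day, the p-values do not measure the spread between cultures, and with at most 5 expected counts in a library Nkd1, Rnf43 and Sp5 are too low for a difference to be detected.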
